A study of Mus musculus with 6 samples.

Results

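The genes described here encode the voltage-gated sodium, potassium and calcium channels, their auxiliary subunits and their close relatives. They were taken by name, as every gene in the deposited tables whose symbol starts with Scn followed by a number and a or b, with Kcn, Cacna, Cacnb or Cacng, or with Hcn and a number. The rule took 142 of 24411 genes, 5 of them antisense or other genes that share the first letters. Of the 142, 56 had 0 counts in every library, 38 had 1 to 29 counts over all libraries and 48 had 30 or more. These 48 are described in detail. The rule uses names and total counts only.

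RNA was sequenced from the corpus callosum, the tract of axons between the cortical hemispheres, on postnatal day 4. Frozen brain was cut at 60 µm, the tract was hand-dissected, and polyadenylated RNA was kept. The 3 WT libraries and the 3 Mettl14 cKO libraries (conditional knockout of Mettl14, a subunit of the enzyme that writes N6-methyladenosine, m6A, on RNA) come from B6 mice per the labels. The sources used here do not give the Cre line that deletes Mettl14 or the cells it reaches. Nor do they say that each library is a separate animal, so the tests measure the spread between libraries, which may be technical.

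Depth was low, at 670462 to 1268430 expected counts (estimated fragments) per library, and the channel genes held 0.135% to 0.253% of them. Both replicate 2 libraries were the deepest of their groups and had the shortest fragments (292.7 and 304.3 bases on average, against 332.4 to 350.5). Mettl14 itself was counted 11, 8 and 5 times in WT replicates 1 to 3 and 2, 7 and 2 times in cKO, a log2 difference of −0.88 (SE 0.55) with an exact two-sided permutation p of 0.3, where 0.1 is the lowest that 3 against 3 libraries allow. Its loss was not detectable at this depth. Xist, a sex-linked transcript, had 0 counts in each WT library and 2323 to 4618 in the cKO libraries. Genotype and sex, as far as this transcript marks it, therefore cannot be told apart for any gene compared here. Cell markers differed too. The summed level of 9 excitatory neuron markers was 223 to 717 CPM (counts scaled to library size) in WT and 5273 to 6103 in cKO, and Neurod2, a defining factor of those neurons, was at 0 in WT. Of the 7 tested, 5 had positive log2 fold changes, 1 of them called (0.49% of all tested genes were called higher). Slc17a7 and Camk2a stood at −0.6 and −0.46. The highest cKO means of these markers were those of Neurod2, Neurod6 and Bhlhe22, at 2243, 1370 and 1002 CPM. Pan-neuronal markers, 7 in all, differed less, with sums of 6262 to 8051 CPM in WT and 9517 to 12059 in cKO. Their log2 fold changes were positive for 5 and negative for 2, with a median of 0.32. All 4 tested interneuron markers had negative values (median −1.3). Astrocyte markers, 10 in all, summed to 9635 to 10570 CPM in WT and 2796 to 2904 in cKO. The 9 markers of myelinating oligodendrocytes summed to 2536 to 4122 and to 2 to 10.8 CPM, with Mobp at 0 in all 6 libraries. In bulk RNA, fewer cells of a type and less RNA per cell cannot be told apart.

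Voltage-gated channels open or close when the voltage across the membrane changes. Sodium channels carry the rising phase of the action potential along the axon, potassium channels end it and set the resting voltage, and calcium channels turn it into calcium entry at the terminal. Each pore-forming alpha subunit works with auxiliary subunits that move it to the membrane and tune its gating. Young axons express some family members before myelin and nodes form and others only afterwards, and glia use inward rectifier and tandem-pore potassium channels to hold their resting voltage and take up potassium.

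The most abundant channel genes per length were auxiliary subunits and potassium channels of glia. Levels are given as TPM, which corrects for transcript length, as the mean of all 6 libraries. Kcnip3, a calcium-binding partner of Kv4 potassium channels also known as a transcriptional repressor, was highest at 97.3 TPM. Cacng4, an auxiliary subunit of AMPA receptors, followed at 72.5 TPM and Kcnk2, the tandem-pore channel TREK, at 60.8. Cacng7, another auxiliary subunit of AMPA receptors, had a mean of 49, with 180 TPM in cKO replicate 2 and 13 to 35.6 in the others. Cacnb3, a calcium channel beta subunit, stood at 48.9 TPM and Kcnj10, the glial inward rectifier Kir4, at 42.8. Among pore-forming sodium and calcium subunits the highest levels were 21.9 TPM for Scn2a1 (now Scn2a), the main sodium channel of young axons, and 11 TPM for Cacna1a, the P/Q-type channel of nerve terminals. Kcnd3, a Kv4 channel of the fast A-type current, stood at 16.9 TPM, with 58.3 in WT replicate 3 and 2.83 to 14.8 in the others. Hcn2, a channel opened by hyperpolarization, was the one HCN gene with 30 counts and stood at 3.19 TPM.

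**Figure D1:**
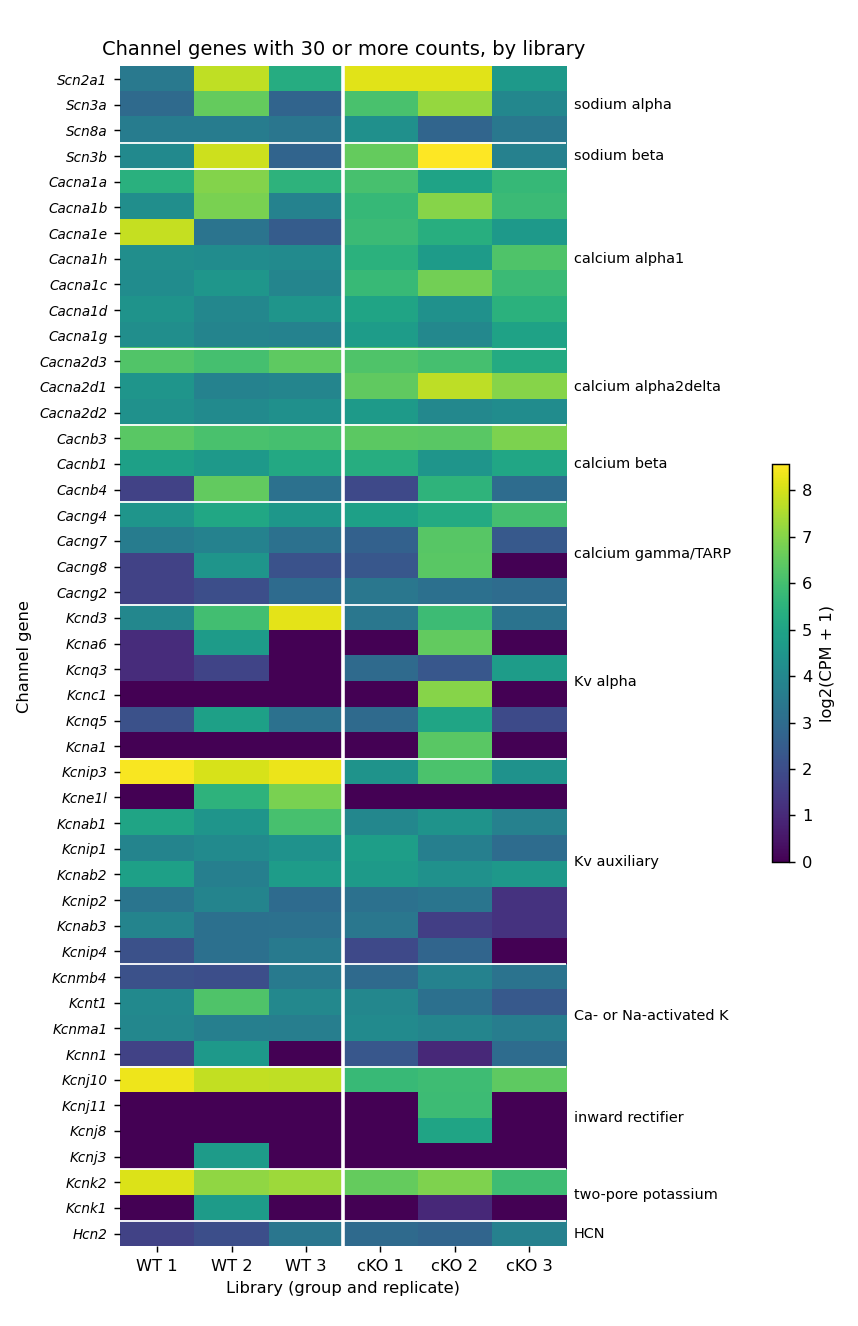
Level of 46 of the 48 channel genes with 30 or more counts (rows, grouped by subfamily and ordered by mean TPM) in the 6 libraries (columns); colour is log2(CPM + 1). Kcnip3, Kcnj10 and Kcnk2 are brighter in all 3 WT libraries, Cacna2d1 and Cacna1c in all 3 cKO libraries, and several rows are bright in 1 library only, most often cKO replicate 2.

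Between the genotypes no channel gene passed the test. With edgeR's quasi-likelihood test over 5918 genes, 27 channel genes were tested and 0 were called higher and 0 lower in cKO at an adjusted p below 0.05. Of all tested genes 0.49% were called higher and 0.422% lower, 0.912% together. The lowest adjusted p among the channel genes was 0.0916. At an unadjusted p below 0.05 stood 8 of the 27, beside 12.6% of all tested genes. Of these 4 were higher and 4 lower in cKO, where 7.16% and 5.41% of all tested genes were. The 3 WT values did not overlap the 3 cKO values in 9 of the 27, beside 19.8% of all tested genes. The median log2 fold change was 0.12 for the channel genes and 0.069 for all tested genes. DESeq2 called 5 channel genes, 3 as higher (Cacna2d1 and Cacna1c among them) and Kcnip3 and Kcnj10 as lower, and 7.25% of all tested genes. With limma-voom 0 channel genes and 0.71% of all tested genes were called. The other 21 genes with 30 or more counts lay below the filter on low counts and have values only.

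**Figure D2:**
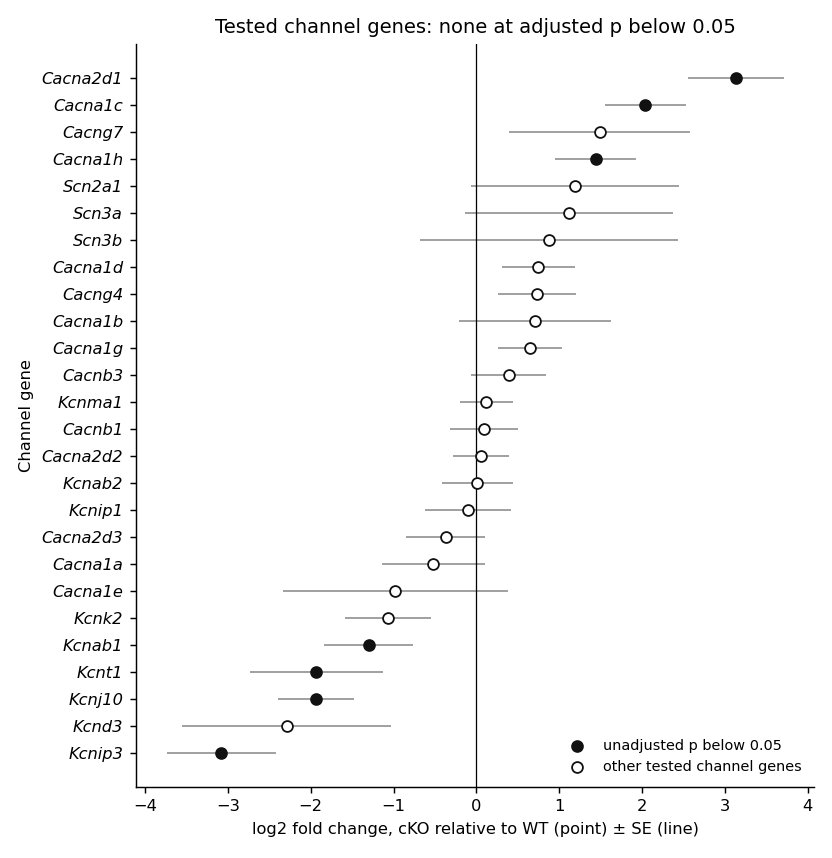
Log2 fold change of cKO relative to WT (points) with the SE of the edgeR fit (lines) for 26 of the 27 tested channel genes; filled points have an unadjusted p below 0.05. The 7 filled points lie between −3.08 and 3.13, and none of the 26 reached an adjusted p below 0.05.

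Sequence around a possible methylation site is shown for 7 of these 8 genes, since m6A is written on adenosines within a short sequence of which GGACT is a common form. For each gene it is the GGACT nearest the end of the coding part, on the transcript strand, in the coding exons or, where no coding exon holds its whole window, in the 3′ UTR. Windows are 25 bases, 5′ to 3′, with the motif in capitals, from GENCODE transcripts of GRCm38, the same assembly as mm10.
Cacna2d1: gtctatctttGGACTccagtttata
Cacna1c: gatttcagaaGGACTgggacagttt
Cacna1h: gaaggagcaaGGACTgtacctcact
Kcnip3: aggggccattGGACTaagacctcct
Kcnj10: gtggggagggGGACTttgagctggt
Kcnt1: gaagcacctgGGACTgcccaccact
Kcnab1: gacagaaaggGGACTgtcaagaaag

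The Cacna2d1 site lies on the plus strand at chr5:16370608-16370632, in the last of 39 exons, 49 bases before the end of the coding part. The Cacna1h site (chr17:25375184-25375208, minus strand) is 88 bases from it in exon 35 of 35, and the Cacna1c site (chr6:118594165-118594189, minus strand) 280 bases from it in exon 42 of 42. For Kcnj10 it is chr1:172369735-172369759 on the plus strand, in exon 2 of 2, 308 bases from the coding end. That of Kcnt1 (chr2:25911325-25911349, plus strand) is in exon 28 of 31, and that of Kcnab1 (chr3:65304126-65304150, plus strand) in exon 7 of 14. The Kcnip3 site is in the 3′ UTR, on the minus strand at chr2:127457727-127457751, 602 bases after the coding part. All 27 tested channel genes hold at least 1 GGACT in the matched transcript, as do 92.5% of all tested genes, whose transcripts are shorter (median 3141 bases against 5219). Per kilobase the median was 1.14 motifs in the tested channel genes and 1.05 in all tested genes. The 3 genes shown that stood higher in cKO held 1.03 to 1.45 per kilobase and the 4 that stood lower 0.732 to 2.46. The matched transcript can differ in length from the transcript model that was counted. It is shorter for Cacna2d1 (3879 against 7436 bases) and Kcnk2 (1548 against 3406), and longer for Cacng4 (3500 against 984). Motifs in the parts that the matched transcript lacks are not counted here. A motif is a match of letters only, and methylation was not measured.

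The abundant sodium channel genes were high in 1 WT and 2 cKO libraries and low in the other 3. For Scn2a1 (chromosome 2, 65620764 to 65767447) the WT replicates gave 9, 265.2 and 33 counts and the cKO replicates 214, 286.7 and 16.6. WT replicate 2 and cKO replicates 1 and 2 were the high libraries, and the groups overlap, with a fitted log2 difference of 1.19 (SE 1.26; adjusted p = 0.792, edgeR). Scn3a, the sodium channel most typical of immature neurons, gave 6, 113.8 and 5 counts (WT) and 50, 146.3 and 10.3 (cKO). Scn3b, an auxiliary subunit of early neurons, gave 14, 300 and 5 (WT) and 69, 378 and 9 (cKO). Scn3a and Scn3b were high in the same 3 libraries as Scn2a1. Their log2 differences were 1.12 (SE 1.26) and 0.88 (SE 1.56). Without WT replicate 2 the 3 genes stood at 3.04 (Scn2a1), 3.57 (Scn3a) and 3.89 (Scn3b), with adjusted p = 0.406, 0.344 and 0.391 in edgeR. Without cKO replicate 2 Scn3a stood at 0.22 and Scn3b at −0.73. Scn2a1 and Scn3a lie next to each other and share similar sequence, which RSEM divides by estimate.

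Sodium channels of mature nodes were scarce. Scn8a, the channel of the mature axon initial segment and node, was at 6 to 14 counts in every library, or 1.35 TPM. Scn1a, which takes over in fast-firing interneurons, had 0 to 5 counts per library and Scn4b had 0 in all 6.

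Of 10 pore-forming alpha1 subunits of calcium channels 7 were tested. None was called, 5 had positive and 2 negative values, and their median log2 fold change was 0.71. Cacna1c (chromosome 6, 118587240 to 119197384), the L-type channel, gave 15, 27 and 12 counts in the WT replicates and 40, 107 and 40 in the cKO replicates. Each cKO library was above each WT library. The level was 17.5 ± 3.9 CPM in WT and 72.5 ± 30 in cKO (SD, n = 3). This is a log2 difference of 2.04 (SE 0.49; adjusted p = 0.175, edgeR). Cacna1h, a T-type channel that opens at low voltage, gave 16, 21 and 14 counts (WT) and 32, 25 and 51 (cKO). Its groups did not overlap in CPM either, at 17 ± 0.851 in WT and 46.7 ± 23.8 in cKO (SD, n = 3), with a log2 difference of 1.44 (SE 0.49; adjusted p = 0.288, edgeR).

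The other alpha1 genes showed smaller or less even differences. Cacna1d, another L-type channel, and Cacna1g, another T-type, had 18 to 31 and 11 to 21 counts per library, with log2 differences of 0.75 (SE 0.44) and 0.65 (SE 0.39). The groups overlap for both. Cacna1a gave 38, 154 and 39 counts (WT) and 49, 30 and 37 (cKO). WT replicate 2 stood apart, and the log2 difference of −0.52 (SE 0.62) became 0.16 without it (adjusted p = 0.828 and 0.919, edgeR). Cacna1b, the N-type channel of growth cones and young terminals, gave 16, 141 and 11 counts (WT) and 39, 127 and 40 (cKO). Both replicate 2 libraries were high and the groups overlap, with a log2 difference of 0.71 (SE 0.92; adjusted p = 0.848, edgeR). Cacna1e, the R-type channel, had 201 counts in WT replicate 1 and 4 to 42 elsewhere. With that library its log2 difference was −0.98 (SE 1.36) and without it 2.54, and neither passed (adjusted p = 0.858 and 0.445, edgeR).

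Among auxiliary calcium channel subunits Cacna2d1 had the largest log2 difference. It encodes alpha2delta-1, which carries calcium channels to the surface and is the target of gabapentin (chromosome 5, 15934264 to 16374511). The WT replicates gave 19, 16 and 12 counts and the cKO replicates 65, 209 and 90. Each cKO library was above each WT library, at 141 ± 62.1 CPM against 16.1 ± 4.61 (SD, n = 3). The log2 difference of 3.13 (SE 0.58) had the lowest adjusted p of the channel genes (0.0916, edgeR). It was 2.6 in the fit without both replicate 2 libraries, and the ratio of these 2 libraries alone was 4.02 on the log2 scale. Its paralogs had smaller values. Cacna2d2 had 12 to 20 counts per library and a log2 difference of 0.06 (SE 0.34), negative with upper-quartile scaling. Cacna2d3 gave 66, 80 and 74 counts (WT) and 54, 64 and 26 (cKO), at −0.37 (SE 0.48). Whether the paralogs differ in response was not tested.

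Both tested beta subunits had overlapping groups. Cacnb3, which brings N-type channels to the membrane, gave 73, 85 and 56 counts (WT) and 62, 81 and 83 (cKO), with a log2 difference of 0.39 (SE 0.45). Cacnb1 had 21 to 30 counts per library and a value of 0.09 (SE 0.41), which turned negative with upper-quartile scaling. Cacnb4 lay below the filter, with 112 counts in WT replicate 2, 46 in cKO replicate 2 and 2 to 7 in the other 4 libraries.

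Most Cacng genes with counts act on AMPA receptors. Cacng4, expressed in oligodendrocyte precursors and young neurons, gave 19, 42 and 19 counts (WT) and 21, 37 and 45 (cKO), at a log2 difference of 0.73 (SE 0.47). Cacng7 had 80 counts in cKO replicate 2 and 3 to 16 in the others. Its log2 difference was 1.49 (SE 1.09) and became −1.14 without that library (adjusted p = 0.664 and 0.463, edgeR). Cacng8, next to Cacng7 on chromosome 7 and not tested, had 26 counts in WT replicate 2, 82 in cKO replicate 2 and 0 to 3 elsewhere. Cacng2, or stargazin, had 2 to 8 counts per library.

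Among the Kv alpha genes, 19 of 40 had 0 counts in all 6 libraries, among them Kcna2 and Kcnf1, and 2 were tested. Kcnq3, a channel of the slow current that limits repetitive firing, lay below the filter with 1, 3 and 0 counts (WT) and 5, 4 and 18 (cKO). Its relative Kcnq5 had 35 and 32 counts in the replicate 2 libraries and 2 to 7 in the others.

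Kcnd3 gave 13, 77 and 253 counts (WT) and 7, 57 and 6 (cKO). WT replicate 3 held 66% of its CPM and the groups overlap. Its log2 difference was −2.29 (SE 1.26; adjusted p = 0.526, edgeR), and −0.61 without that library (adjusted p = 1). It was −3.76 without cKO replicate 2 and −4.07 without both replicate 2 libraries (adjusted p = 0.406 and 0.415). The model of 7169 bases held 247.4 counts in WT replicate 3 and 1.2 in WT replicate 1. The model of 1968 bases held 5.6 and 11.8. Both replicate 2 libraries had most of their counts on the long model, 74 in WT and 57 in cKO. These assignments are estimates from few fragments and were chosen for display after the values were seen.

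**Figure D3:**
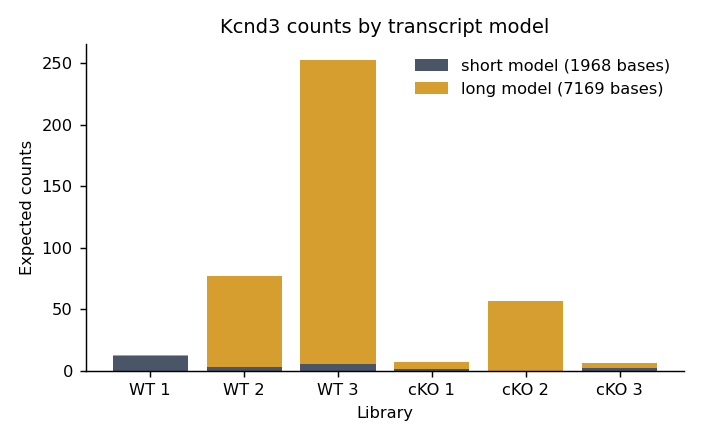
Expected counts of Kcnd3 in each library (bars), split by the transcript model RSEM assigned them to. The long model holds 247.4 counts in WT replicate 3, 74 in WT replicate 2 and 57 in cKO replicate 2, and 1.2 to 5.4 in the other 3 libraries.

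Kcnip3 was both the most abundant Kv auxiliary gene and the one with the lowest log2 value of all tested channel genes (chromosome 2, 127456498 to 127522094). The WT replicates gave 319, 326 and 274 counts and the cKO replicates 15, 70 and 14. The lowest WT library stood at 262 CPM and the highest cKO library at 70.1. The level was 313 ± 48.5 CPM in WT and 36.7 ± 28.9 in cKO (SD, n = 3), 8.46-fold lower in cKO, or −3.08 on the log2 scale (SE 0.66; adjusted p = 0.143, edgeR). It was −4.06 without both replicate 2 libraries and −1.9 as the ratio of those 2 alone. Besides DESeq2, upper-quartile scaling in edgeR (−3.59, adjusted p = 0.0267) and limma on log2(TPM + 1) (−3.32, adjusted p = 0.0411) called it, where these called 1.17% and 1.28% of all tested genes. Over all alternatives its adjusted p was 7.34e-06 to 0.432.

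The other partners of Kv4 channels had fewer counts. Kcnip1 gave 12, 20 and 17 counts (WT) and 20, 12 and 5 (cKO), at a log2 difference of −0.1 (SE 0.52), Kcnip2 had 1 to 17 per library and Kcnip4 had 0 to 10. The beta subunits of Kv1 channels share a fold with oxidoreductases. Kcnab1 gave 28, 26 and 57 counts (WT) and 11, 20 and 9 (cKO), without overlap in CPM. The gap was narrow, with the lowest WT library at 20.9 CPM and the highest cKO library at 20, both replicate 2. Its log2 difference was −1.3 (SE 0.54, adjusted p = 0.39, edgeR), and −0.73 without WT replicate 3 (adjusted p = 0.798). It was −1.8 without both replicate 2 libraries and −0.06 as the ratio of those 2 alone. Kcnab2 had 15 to 25 counts in each library and a value of 0.01 (SE 0.43). The sign turned in several alternatives, RLE and upper-quartile scaling among them.

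Channels opened by internal calcium or sodium were low. Kcnt1, a sodium-activated potassium channel, gave 14, 90 and 13 counts (WT) and 11, 8 and 3 (cKO), and the log2 difference of −1.93 (SE 0.8; adjusted p = 0.39, edgeR) became −0.77 without WT replicate 2 (adjusted p = 0.614). The other WT values of 15.1 and 15.7 CPM lie beside a highest cKO value of 14.8. Kcnma1, the large-conductance BK channel, had 8 to 15 counts in each library and a value of 0.12 (SE 0.32), negative with upper-quartile scaling. Its auxiliary subunit Kcnmb4 had 3 to 13 counts and was the most abundant of this subfamily per length, at 14.6 TPM.

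Kcnj10 and Kcnk2, potassium channels that set the resting voltage of astrocytes and other glia, stood lower in every cKO library than in every WT library. For Kcnj10 (chromosome 1, 172341210 to 172374085) the WT replicates gave 290, 272 and 183 counts and the cKO replicates 40, 59 and 60. The lowest WT library stood at 213 CPM and the highest cKO library at 84.9. The level was 252 ± 63.5 CPM in WT and 65.9 ± 16.6 in cKO (SD, n = 3), or −1.94 on the log2 scale (SE 0.46; adjusted p = 0.172, edgeR). It was −1.95 without both replicate 2 libraries and −1.89 as the ratio of those 2 alone. Kcnk2 gave 244, 173 and 136 counts (WT) and 68, 120 and 42 (cKO), at −1.07 (SE 0.52, adjusted p = 0.465, edgeR). This value was less even, at −1.51 without both replicate 2 libraries and −0.21 as the ratio of those 2 alone. Without WT replicate 1 Kcnk2 stood at −0.72. All 8 tested astrocyte markers had negative log2 fold changes, with a median of −1.96. Of these 2 were called, where 0.422% of all tested genes were called lower. In 6 of the 8 the groups did not overlap, beside 19.8% of all tested genes. Gfap in cKO replicate 3 (1031 CPM) and Gja1 in cKO replicate 2 (175 CPM) lay above the lowest WT library (929 and 68.5 CPM). All 4 tested oligodendrocyte precursor markers also had negative values (median −3.54), 1 of them called. The part of either cell type in the values of Kcnj10 and Kcnk2 was not tested. Kcnj16, which forms a joint channel with Kcnj10 in astrocytes, had 0 counts in all 6 libraries.

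**Figure D4:**
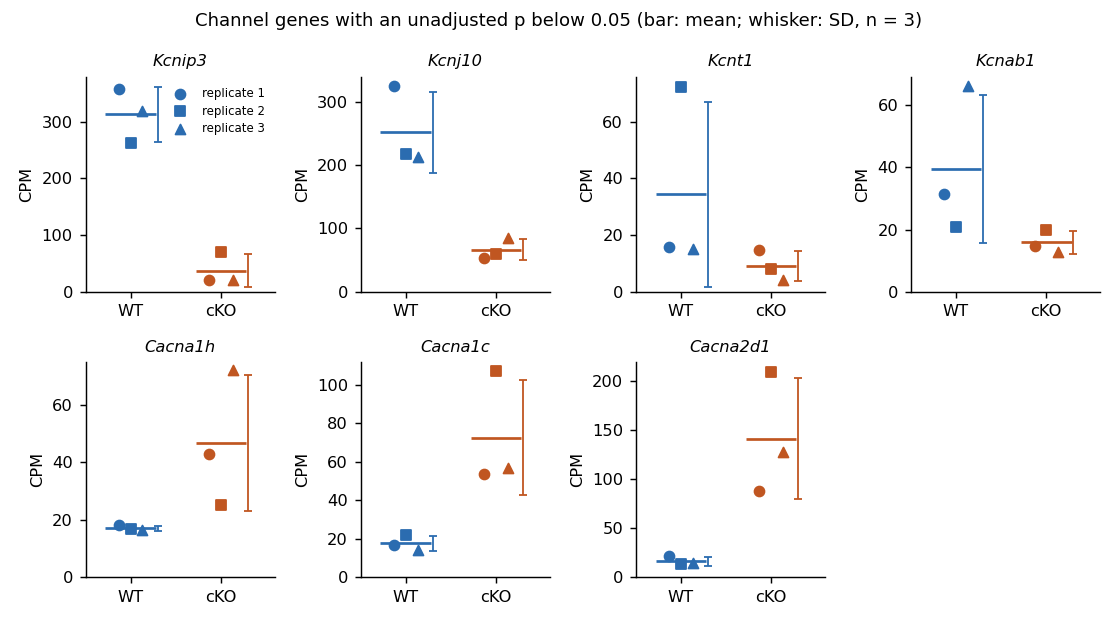
CPM in each library (points, shaped by replicate) of 7 of the 8 channel genes with an unadjusted p below 0.05, with group means (bars) and SD (whiskers, n = 3). In each panel the 3 WT values lie on 1 side of the 3 cKO values; for Kcnt1, WT replicate 2 stands apart at 72.3 CPM.

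Some of the remaining channel genes were counted mainly in 1 library. Of the 48 genes 19 (39.6%) had over 50% of their CPM in 1 library, against 18.9% of all 8356 genes with 30 or more counts, and 6 (12.5%) had over 90%, against 3.09%. In 10 of the 19 that library was cKO replicate 2 and in 5 WT replicate 2. Kcna1, a Kv1 channel found beside mature nodes, had 82 counts in cKO replicate 2 and 0 in the other 5 libraries. Kcnc1, a Kv3 channel of fast-firing neurons, had 127 counts in cKO replicate 2, and Kcnj11, the ATP-sensitive inward rectifier, 58, both with 0 in the other 5. Kcnj8, a channel of pericytes, had 31 counts in cKO replicate 2 alone. Kcnj3, which G proteins open, had 31 in WT replicate 2 alone, and Kcnk1 had 31 in WT replicate 2 and 1 in cKO replicate 2. Kcne1l, a small auxiliary subunit with 1 exon on the X chromosome, had 57 and 98 counts in WT replicates 2 and 3 and 0 in the other 4. The groups overlap at 0 counts for each of these 7 genes, and no fold is given.

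These 7 genes share a structure that the naming rule did not use. Kcna1, Kcna6, Kcnc1, Kcne1l, Kcnj3, Kcnj8, Kcnj10, Kcnj11, Kcnk1 and Kcnmb4 are the 10 of the 48 whose matched transcript has 1 to 3 exons. In WT replicate 1, cKO replicate 1 and cKO replicate 3, 8 of these 10 were at 0 or 1 count. WT replicate 3 had 7, WT replicate 2 had 4 and cKO replicate 2 had 3. Of the 38 with more than 3 exons 0 to 4 were at 0 or 1 count in a library. All genes with 30 or more counts showed the same direction: 11.1% to 55.3% of 631 genes with 1 to 3 exons were at 0 or 1 count in a library, against 2.46% to 7.6% of 7680 with more exons. Kcnj10, with 2 exons, and Kcnmb4, with 3, had counts in all 6 libraries.

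**Figure D5:**
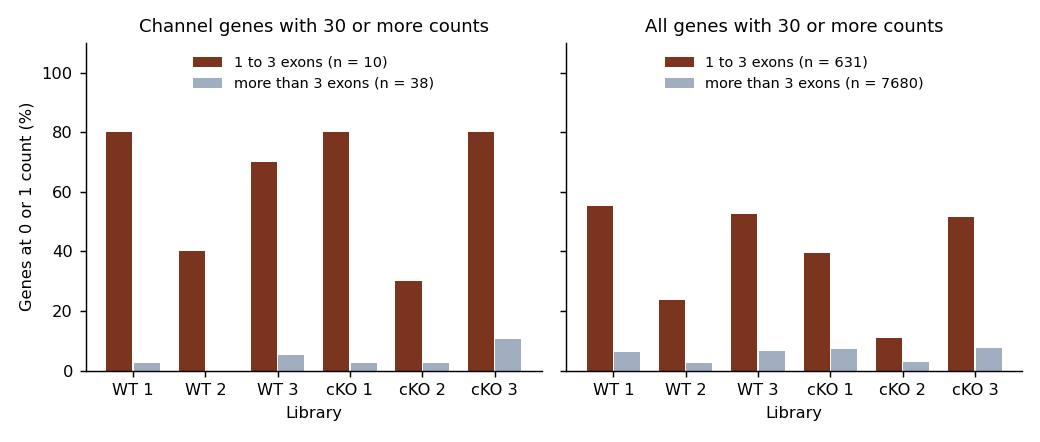
Share of genes at 0 or 1 count in each library, for genes of 1 to 3 exons (brown) and of more than 3 exons (grey), among channel genes (left) and all genes (right) with 30 or more counts. Brown bars are higher in all 6 libraries of both panels; in both replicate 2 libraries they stand at 30% and 40% on the left and 11.1% and 23.8% on the right.

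Grouped by role, the channel genes gave no call in any group with edgeR. Of 17 genes typical of early neurons 10 were tested, 8 with positive and 2 with negative values and a median log2 fold change of 0.79. With an unadjusted p below 0.05 stood 2 of the 10, beside 12.6% of all tested genes. The 17 genes summed to 117, 242 and 118 TPM in WT and 184, 334 and 213 in cKO, so the groups overlap through WT replicate 2. Of 13 genes of mature, fast-firing axons and nodes 2 were tested, with a median of −0.25 and 0 at that threshold. They summed to 29.6, 43 and 35.7 TPM in WT and 25.9, 92 and 35.4 in cKO, so the highest sum is that of cKO replicate 2 and the other cKO sums lie within or below the WT range. Of 8 glial channel genes 3 were tested (Kcnj10, Kcnk2 and Cacng4), 1 with a positive and 2 with negative values. In the vessel and immune group Cacna1c and Cacna1h were the 2 tested genes, both with positive values, and 6 of its 10 genes had 0 counts in all libraries. Of the endothelial markers all 3 tested had negative values (median −1.55), and Cldn5 was at 0 in all 6 libraries. Of 4 tested mural markers 1 had a positive and 3 had negative values (median −0.85). The part of vessel cells in the values of Cacna1c and Cacna1h was not tested.

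Genes that place these channels in the axon showed no call in edgeR either. Of 15 tested genes of the axon initial segment and node 7 had positive and 8 negative values (median −0.06 on the log2 scale). With an unadjusted p below 0.05 stood 4, beside 12.6% of all tested genes. Cntn2, an adhesion protein that gathers Kv1 channels beside nodes, gave 199, 210 and 24 counts (WT) and 1837, 1550 and 3370 (cKO), at 4.38 on the log2 scale (SE 0.84; adjusted p = 0.105, edgeR). Upper-quartile scaling in edgeR and DESeq2 called it (adjusted p = 0.0279 and 7.71e-09), and DESeq2 also called Nedd4l (adjusted p = 0.0269). These 2 methods called 1.17% and 7.25% of all tested genes. Cntn1, a relative of Cntn2, stood at −1.37 (SE 0.56). The ubiquitin ligase Nedd4l, which removes sodium channels from the membrane, stood at 1.4 (SE 0.47). The node spectrin Sptbn4 stood at 2.26 (SE 0.93), with 152 counts in cKO replicate 2 and 7 to 18 elsewhere. Without cKO replicate 2 Sptbn4 stood at 0.62, and without both replicate 2 libraries at 0.54. Ank3, the ankyrin that anchors sodium channels at the initial segment, gave 100, 853 and 96 counts (WT) and 591, 1127 and 465 (cKO). As with Scn2a1 and Scn3b, WT replicate 2 was far above the other WT libraries. Ank3 was named after its values were seen.

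Of 18 tested genes that modify channels 8 had positive and 10 negative values (median −0.19). With an unadjusted p below 0.05 stood 2 of the 18, beside 12.6% of all tested genes. Camk2b, a kinase that acts on calcium channels, stood at 1.04 (SE 0.4) on the log2 scale. Nalcn, the sodium leak channel, gave 27, 19 and 26 counts (WT) and 10, 6 and 6 (cKO), at −1.44 (SE 0.47). Dpp10, which speeds Kv4 channels, stood at −1.23 (SE 0.68) and Camk2d, another form of that kinase, at −0.87 (SE 0.5). Leaving out 1 library moved each of these. Dpp10 went to −2.02 without cKO replicate 1 and −0.78 without WT replicate 1. Nalcn went to −1.84 without cKO replicate 1 and −1.18 without cKO replicate 2. Camk2d went to −0.49 without WT replicate 3, and Camk2b to 0.65 without cKO replicate 1. None of these 4 passed (adjusted p = 0.267 to 0.552, edgeR).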

How the data were processed

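The submitters' processing notes name STAR 2.7.10b, RSEM 1.3.3 and build mm10; the sources used here give no annotation release, strand setting or filter. Each library has 1 deposited RSEM table, with 35034 transcripts. Per the file headers, the authors' expected counts are estimated fragments per transcript, and the deposited TPM values are scaled for length and library total. The effective length among the other deposited columns gave the mean fragment length. Counts and TPM were summed per gene, and counts were rounded for testing.

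Genotypes were compared over all 6 libraries with edgeR 4.0.16 in R 4.3.3 (quasi-likelihood test, TMM, filterByExpr at its minimum count of 10). Genes were called below an adjusted p of 0.05 (Benjamini-Hochberg over 5918 genes). Log2 differences are cKO relative to WT. CPM uses the TMM scaling, on which 1 count is 0.803 to 1.41 CPM; 3 counts, the limit that 0 counts allow, are 2.41 to 4.24 CPM, for counting error only. SE restates the p-value: it was obtained from the log2 difference and the F statistic. No 2 libraries agreed within counting noise. As alternatives served other scalings (RLE, upper-quartile) and filters, DESeq2 1.42.0, limma 3.58.1 (voom, or log2(TPM + 1)), the replicate number as a block, a term for both replicate 2 libraries, and fits without single libraries or without both replicate 2 libraries. The test was tried on simulated data.

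Named genes were the 10 tested channel genes with the smallest p in each direction, any that were called, the most abundant of each subfamily, those with 30 or more counts but 0 to 3 in a whole group, up to 4 of each partner list, and Mettl14. Other genes were named after their values were seen, to complete a subfamily. Some genes that the rule takes enter the counts but are not reported here singly. Exons, motif positions and transcript sequences came from GENCODE M21 (GRCm38) by RefSeq accession, matched for 141 of the 142 genes. The positions of whole genes came from a RefSeq gene list, by accession or symbol. The members and lists were chosen with earlier results of these data known.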

Additional observations from a re-analysis of the deposited data

How the results depend on the processing

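Counts of called genes depended on the method. In edgeR 29 genes were called higher and 25 lower in cKO. This became 12 and 10 without a filter, 12 and 10 with a filter of 1 CPM in 3 libraries, 250 and 179 with DESeq2, 11 and 8 with a term for both replicate 2 libraries, and 0 and 0 without those libraries (740 genes at an unadjusted p below 0.05 in edgeR). Leaving out single libraries gave 0 to 28 higher and 0 to 14 lower (573 to 834 genes at an unadjusted p below 0.05). For channel genes the 0 higher and 0 lower became 3 and 2 with DESeq2, and 0 and 1 (Kcnip3) with upper-quartile scaling or limma on log2(TPM + 1). In the other alternatives they stayed at 0 and 0, with 5 to 12 channel genes at an unadjusted p below 0.05 of 27 to 86 tested.

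Same-numbered WT and cKO libraries had correlations of deviations of 0.0638, 0.462 and 0.162, so the numbers were not taken to pair the libraries. WT replicate 1 correlated best with cKO replicate 3 (0.2). With the replicate number as a block 1 gene was called higher and 0 lower over all genes (763 at an unadjusted p below 0.05 in edgeR), and Cacna1e stood at 0.84.

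Directions turned for Cacna1a (0.43 without both replicate 2 libraries; −0.78 to 0.16 without single libraries), Cacna1e (0.78 with limma-voom, 0.23 with limma on log2(TPM + 1); −1.56 to 2.54 without single libraries) and Kcnip1 (0.05 without both replicate 2 libraries; −0.82 to 0.25 without single libraries). Without single libraries Cacng7 ranged from −1.14 to 1.98 and Scn3b from −0.73 to 3.89. The sign also turned for Cacna2d2, Cacnb1 and Kcnab2 without WT replicate 2 or without cKO replicate 1. Kcnma1 turned without cKO replicate 1, and Kcnab2 also without cKO replicate 3 or without both replicate 2 libraries. Cacna2d2 turned with limma on log2(TPM + 1) too. The cause was not tested. Without both replicate 2 libraries Cacng7 lay below the filter and has no value. With upper-quartile scaling the all-gene median moved from 0.069 to −0.22, and that of the 27 channel genes from 0.12 to −0.18. The filter on low counts left 115 channel genes untested, 56 of them at 0 counts. Low depth and low expression cannot be told apart for these. Genes of 1 to 3 exons were also more often at 0 or 1 count in every library. Kcna2 and Kcnj16, with 3 exons each, and Kcnf1, with 1, are among those at 0 counts. The part of exon number in these zeros was not tested.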
